A study of Capra hircus with 21 samples.

Results

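RBM3 and CIART are 2 of the 19040 genes in the deposited expression table of goat (Capra hircus) oocytes and preimplantation embryos, taken as the rows that carry those gene symbols and followed through all 21 libraries. RBM3 encodes a small RNA-binding protein of the cold-inducible family, whose transcript accumulates in mammalian cells under mild cooling and which binds mRNAs and promotes their translation. CIART, also called CHRONO, encodes a repressor of the circadian clock, which in mouse binds the CLOCK and BMAL1 activator pair at its target genes and lowers their transcription together with the PER and CRY proteins. In the first cleavages an embryo lives on RNA stored in the oocyte, which is degraded as its own genome is switched on, so the level of a transcript is set by what is left of the store and by what the embryo makes.

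RNA was sequenced from oocytes matured in the animal and from embryos that developed in the animal. Embryos were of 6 stages: 2-cell, 4-cell, 8-cell and 16-cell embryos, then morulae, and at last blastocysts. Every stage, the oocyte included, had libraries A, B and C. No breed, age, treatment or genotype is given in the labels, nor the number of embryos in a library or the number of animals behind a stage, so the spread between libraries may be technical. The labels of morula A state that its reverse reads were damaged and left out of the deposit; whether its values used them is not stated.

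The table gives RPKM, reads scaled by gene length and library size, where the length is the whole span of the gene with its introns and 0.01 is added to every value. The smallest steps of the values give each library's depth, which was 8.42 to 26.7 M reads in the listed genes. The 7 oocyte marker genes (GDF9, BMP15, ZP2, ZP4, OOEP, FIGLA and MOS) summed to 269.8 to 381.0 RPKM in oocytes. Their sums were higher still at the 2-cell (465.5 to 670.4), 4-cell (384.6 to 472.0) and 8-cell stages (426.7 to 476.3 RPKM). The 7 trophectoderm genes (KRT8, CDX2, GATA2, GATA3, TFAP2C, TFAP2A and EOMES) summed to 94.3 to 166 RPKM in blastocysts. Most of that was KRT8, at 91.6, 159.9 and 91.9 RPKM in A, B and C. CDX2, GATA2, GATA3 and TFAP2A also had their highest stage means in blastocysts. TFAP2C and EOMES were higher at the 16-cell stage (means 1.45 and 0.303 RPKM) than in blastocysts (0.333 and 0.0349 RPKM). Libraries 16-cell C and morula C stood apart from their stage mates. Their oocyte marker sums were 218.9 and 78.8 RPKM, against 48.3 to 49.8 RPKM in the other 16-cell and 3.94 to 5.34 RPKM in the other morula libraries, and results that rest on them are also given without them.

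Both genes were picked for their course over the stages, so their levels are described without a test. RBM3 lies on scaffold LWLT01000071.1 from 118163 to 120262 on the plus strand, and CIART on chromosome 3 from 99810475 to 99814094 on the plus strand, in the table's coordinates, whose genome build is not given in the sources used here. RBM3 spans 2099 bases and CIART 3619 bases in those coordinates. No listed gene overlapped either. The nearest listed neighbours were TBC1D25 and WDR13, 10631 and 13855 bases from RBM3, and MRPS21 and APH1A, 6728 and 14791 bases from CIART. Reads shared with near-identical copies of either gene, if there are any, could not be told apart, because their handling is not stated.

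RBM3 was low in oocytes and in embryos up to the 8-cell stage, was highest in all 3 libraries of the 16-cell stage, and was low again in morulae and blastocysts. In oocytes it measured 5.55, 4.78 and 5.49 RPKM in libraries A, B and C. At the 2-cell stage it measured 8.39, 8.26 and 7.20 RPKM. At the 4-cell stage it measured 6.18, 9.83 and 7.73 RPKM. No library before the 8-cell stage thus reached 10 RPKM.

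At the 8-cell stage RBM3 measured 4.43, 4.35 and 9.68 RPKM in libraries A, B and C. At the 16-cell stage it measured 350.3, 130.6 and 29.4 RPKM, from 37543, 10862 and 2640 implied reads. In morulae it measured 20.9, 5.11 and 7.51 RPKM. In blastocysts it measured 4.87, 4.01 and 13.5 RPKM. The lowest 16-cell library, C, was still above the highest of the 18 libraries of the other stages, which was morula A, and those 18 had a median of 6.69 RPKM and a lowest value of 4.01 RPKM.

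**Figure D1:**
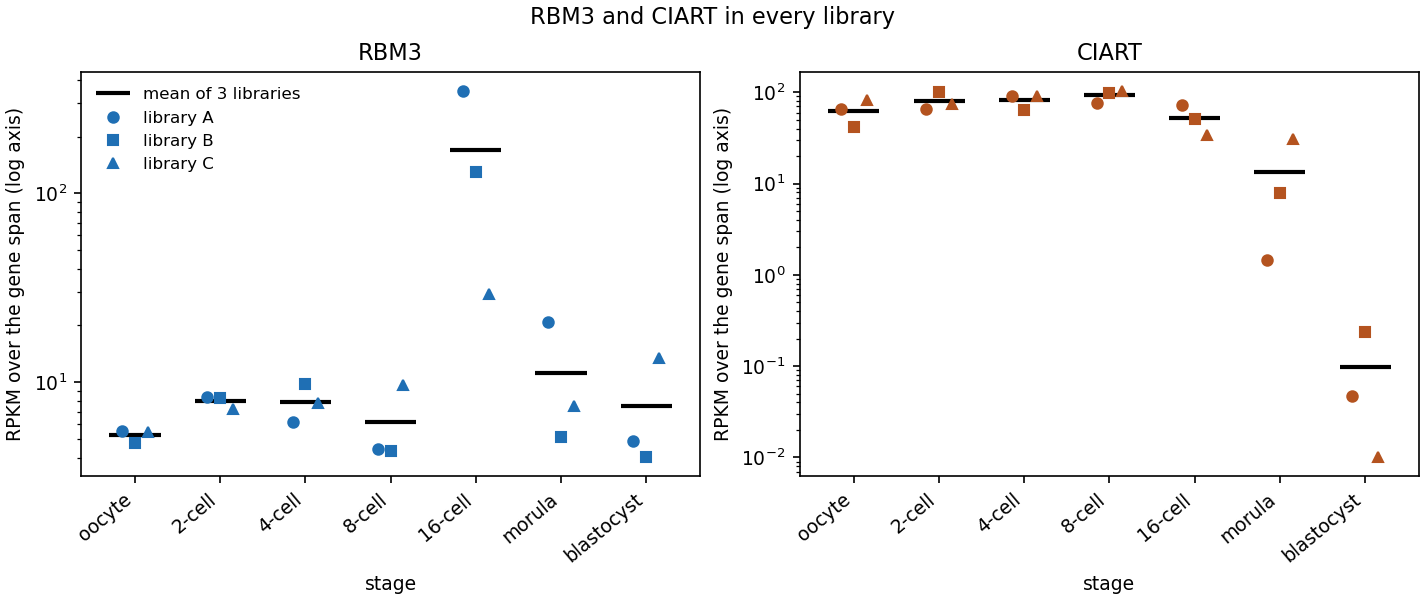
RPKM over the gene span (log axis) of RBM3 (left) and CIART (right) in each of the 21 libraries, by stage; circles, squares and triangles are libraries A, B and C, and the line is the mean of the 3 libraries. RBM3 lies between 4.01 and 20.9 RPKM outside the 16-cell stage and between 29.4 and 350.3 RPKM within it, while CIART lies between 41.4 and 104.3 RPKM up to the 8-cell stage and below 0.24 RPKM in every blastocyst library.

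The mean of RBM3 was 170 ± 164 RPKM (SD, n = 3) at the 16-cell stage, against 6.15 ± 3.05 RPKM (SD, n = 3) at the 8-cell stage, a 27.6-fold ratio of means. It was 11.2 ± 8.54 RPKM (SD, n = 3) in morulae, a level 15.2 times below that of the 16-cell stage. By implied reads RBM3 stood 117th of all genes at the 16-cell stage and 3412th at the 8-cell stage. Scaled to the reads in listed genes instead of the whole library, and without the gene span, it measured 1055 ± 986 in 16-cell embryos and 33.0 ± 18.3 in 8-cell embryos (SD, n = 3 each). The size of the 16-cell level was poorly fixed, since 16-cell A held 11.9 times the RPKM of 16-cell C.

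In the order of mean RPKM, the 16-cell stage was followed by the morula, the 2-cell, the 4-cell, the blastocyst, the 8-cell and the oocyte stage, and each stage below the 16-cell stage overlapped with the next in that order. The means of these 6 stages, taken in developmental order, were 5.27 ± 0.425 RPKM for oocytes, 7.95 ± 0.649 RPKM for 2-cell, 7.91 ± 1.83 RPKM for 4-cell and 6.15 ± 3.05 RPKM for 8-cell embryos, 11.2 ± 8.54 RPKM for morulae and 7.45 ± 5.24 RPKM for blastocysts (SD, n = 3 each). The 3 2-cell libraries all lay above the 3 oocyte libraries, by 1.51 times in the mean. That small step was sensitive to scaling: the log2 difference was 0.51 on log2(RPKM + 1) and 0.25 after quantile normalization.

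CIART was abundant from the oocyte to the 8-cell stage, lower at the 16-cell stage, uneven among morulae and nearly gone in blastocysts. In oocytes it measured 65.5, 41.4 and 81.8 RPKM in libraries A, B and C. At the 2-cell stage it measured 65.4, 100.5 and 75.2 RPKM. At the 4-cell stage it measured 90.6, 63.5 and 91.3 RPKM. These 9 libraries overlapped broadly between stages, with a median of 75.2 RPKM.

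At the 8-cell stage CIART measured 75.8, 97.3 and 104.3 RPKM in libraries A, B and C. At the 16-cell stage it measured 73.2, 51.1 and 34.1 RPKM. In morulae it measured 1.45, 7.90 and 31.1 RPKM, from 291, 682 and 6986 implied reads. In blastocysts it measured 0.0466 RPKM from 6 implied reads (95% exact Poisson interval 2.20 to 13.1 reads) in A and 0.238 RPKM from 47 reads (34.5 to 62.5) in B. Blastocyst C had 0 reads, where 3 reads would amount to 0.0236 RPKM. The intervals cover counting error alone, as the labels name no molecular identifiers. From the 8-cell stage on, each stage lay wholly below the one before, by a narrow margin at the 16-cell stage and again in morulae, where morula C came within a few RPKM of 16-cell C.

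The mean of CIART was 62.9 ± 20.3 RPKM for oocytes, 80.4 ± 18.1 RPKM for 2-cell, 81.8 ± 15.8 RPKM for 4-cell and 92.5 ± 14.9 RPKM for 8-cell embryos (SD, n = 3 each). It was 52.8 ± 19.6 RPKM at the 16-cell stage, 13.5 ± 15.6 RPKM in morulae and 0.0982 ± 0.122 RPKM in blastocysts (SD, n = 3 each). The order by mean was 8-cell, 4-cell, 2-cell, oocyte, 16-cell, morula and blastocyst, and neighbours in that order overlapped down to the 16-cell stage, whose libraries overlapped with those of the oocyte. The 8-cell mean was 1.75 times the 16-cell mean, the 16-cell mean 3.92 times the morula mean, and the morula mean 137 times the blastocyst mean. By implied reads CIART stood 191st of all genes at the 8-cell stage and 8621st in blastocysts. In whole embryos, fewer cells that hold the transcript and less of it per cell cannot be told apart.

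On log2(RPKM + 1) the difference from the stage before was 4.05 for RBM3 and -0.85 for CIART in 16-cell embryos, -3.42 and -2.53 in morulae, and -0.47 and -3.02 in blastocysts. Without 16-cell C and morula C, RBM3 and CIART differed by 4.99 and -0.58 in 16-cell embryos, by -4.22 and -3.74 in morulae, and by -0.62 and -2.09 in blastocysts. As a background for the libraries of RBM3 and CIART that did not overlap, 31.5% of the 4253 genes tested lay wholly higher and 36.1% wholly lower at the 16-cell than at the 8-cell stage. The share wholly lower was 6.58% in morulae against 16-cell embryos and 42.3% in blastocysts against morulae, and the share wholly higher was 37.1% in 2-cell embryos against oocytes. Nothing is read from them about these genes, which were chosen on the same comparisons.

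The libraries that stood apart did not move the genes in one way. RBM3 was lowest among 16-cell libraries in 16-cell C, the library with the most oocyte marker RNA. CIART was lowest there too, at 36.9% of its 8-cell mean against 79.1% in A and 55.3% in B, although GDF9, an oocyte-secreted growth factor, was highest in C, at 30.2% of its own 8-cell mean against 3.69% and 5.08%. In morulae CIART was highest in C, as all 7 oocyte markers were. It was at 1.57, 8.55 and 33.6% of its 8-cell mean in A, B and C, while GDF9 was at 0.283, 0.339 and 5.80% and BMP15, the partner growth factor of GDF9, at 0.626, 2.88 and 24.7%. Between A and B the markers were not alike, since OOEP and ZP2 were higher in A (3.22 and 1.59%) than in B (2.06 and 1.28%). FIGLA was near the floor in both, at 0.0125 RPKM in A and 0.01 RPKM, the offset alone, in B. Morula A was the highest morula for RBM3 and the lowest for CIART. The part of the marker RNA in these values was not tested.

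The share of the 8-cell level that CIART kept at the 16-cell stage stood above the 7 oocyte markers in libraries A and B, but not in C. Its 16-cell mean was 57.1% of its 8-cell mean, as a description over 3 libraries. The share was 49.9% for OOEP, a component of the subcortical maternal complex, 44.5% for FIGLA, an oocyte transcription factor, 30.7% for BMP15 and 26.6% for MOS, the kinase that holds oocytes in meiotic arrest. It was 26.3% for ZP2 and 8.77% for ZP4, both coat proteins of the oocyte, and 13.0% for GDF9. In 16-cell A the markers kept 3.19 to 34.9%, against 79.1% for CIART, and in 16-cell B 4.19 to 23.5%, against 55.3%. Both upper ends were FIGLA, at 0.0596 RPKM in A and 0.0401 RPKM in B. All shares include the offset of 0.01, which raises those of FIGLA, whose 8-cell mean was 0.171 RPKM. In 16-cell C, where CIART kept 36.9%, OOEP kept 116.7%, FIGLA 75.0%, BMP15 54.5%, ZP2 45.5% and MOS 39.3%, all above CIART, and GDF9 and ZP4 were below it at 30.2% and 18.9%.

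The sums over listed markers of other cell types were low. They were below RBM3 at the 16-cell stage and below CIART up to the 8-cell stage, but not below both genes throughout. The sums of the 9 measured blood and immune genes (of 12 listed) stayed below 0.34 RPKM up to the 4-cell stage, and reached 2.32 RPKM in 8-cell C, 3.14 RPKM in 16-cell B and 1.67 RPKM in morula A. Libraries 8-cell C and morula A were also the highest of their stages for RBM3, but 16-cell B was not. The sums of the 9 measured cumulus and granulosa genes ran from 0.0316 to 5.86 RPKM, and those of the 6 measured oviduct and uterine epithelium genes from 0.539 to 6.69 RPKM, over all libraries. In oocytes the oviduct and uterine sums, 5.63 to 6.69 RPKM, were above RBM3, and in blastocysts the immune sums, 0.395 to 0.691 RPKM, were above CIART. The cumulus and the oviduct sums were both lower at the 16-cell stage (at most 2.11 and 1.90 RPKM) than in oocytes (at least 3.10 and 5.63 RPKM). Both oocyte sums came mostly from 1 gene each. MSX1 measured 5.41, 6.25 and 5.24 RPKM in oocytes A, B and C, and STAR averaged 4.42 RPKM. Of the 9 cumulus and granulosa genes 4 had no reads in any oocyte library, and of the 6 oviduct and uterine genes 2. The lower 16-cell sums thus follow MSX1 and STAR, which averaged 0.785 and 1.11 RPKM there. The part of these markers in the course of RBM3 was not tested.

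RBM3 and CIART did not run together over the libraries, with a Pearson r of 0.09 on log2(RPKM + 1) over 21 libraries. The genes most like RBM3, among 2765 symbols of tested genes compared, were LRRC58 (r = 0.94), SF3B3 (0.92), UPRT (0.91), CCNT2 (0.91) and SS18L2 (0.89). SF3B3 is a subunit of the splicing factor SF3b and CCNT2 a cyclin of the elongation factor P-TEFb. LRRC58 averaged 2.26 RPKM (1.17 to 3.60) at the 16-cell stage, against 0.0164 RPKM (0.0158 to 0.0174) at the 8-cell stage. SS18L2 averaged 3.72 RPKM (1.79 to 6.79) at the 16-cell stage, against 0.138 RPKM (0.0576 to 0.230) at the 8-cell stage. The shared 16-cell peak follows from the choice by likeness. LRRC58, SF3B3, UPRT and CCNT2 passed the filter of 1 RPKM only through their 16-cell libraries, with highest values elsewhere of 0.138, 0.646, 0.963 and 0.695 RPKM. The genes least like RBM3 were PLEKHB2 (r = -0.82), COPS3, a subunit of the COP9 signalosome (-0.76), and PDCL, a phosducin-like protein (-0.74).

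**Figure D2:**
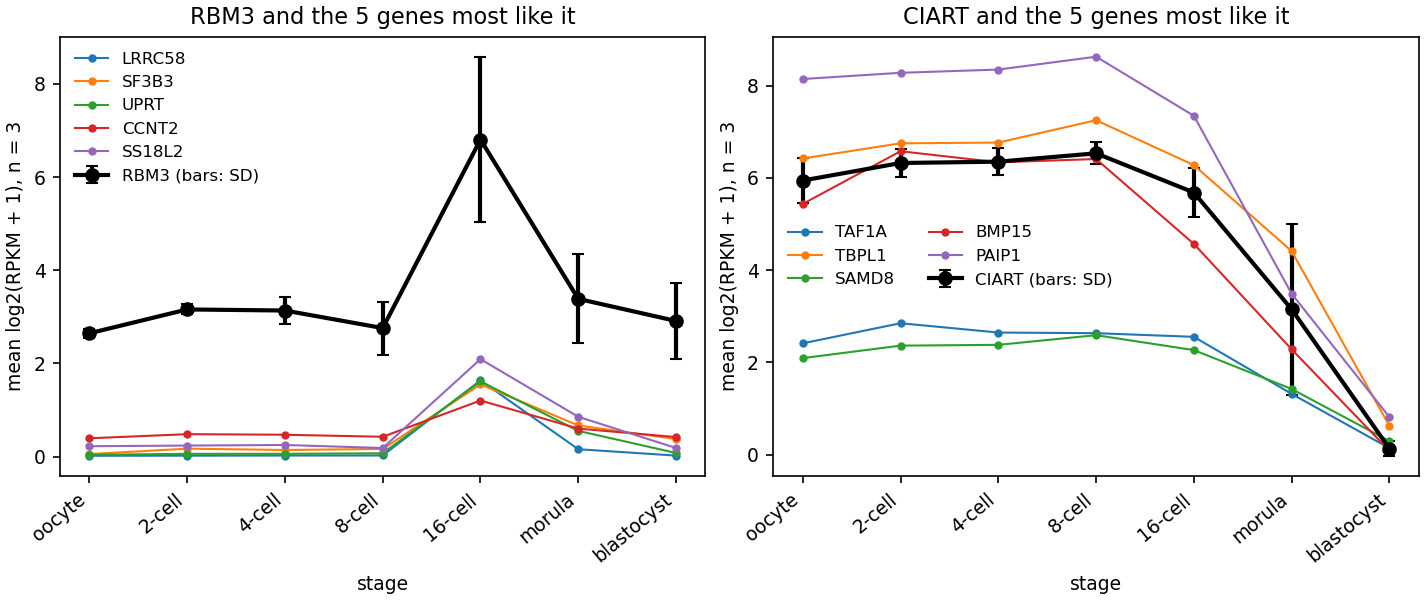
Stage means of log2(RPKM + 1), n = 3 libraries per stage, for RBM3 and the 5 genes most like it (left) and for CIART and the 5 genes most like it (right); bars on the thick line are SD. RBM3 peaks at the 16-cell stage at a mean of 6.81 on this scale, and CIART comes down to 0.13 in blastocysts together with all 5 of its companions.

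The genes most like CIART were TAF1A, a subunit of the RNA polymerase I factor SL1 (r = 0.98), TBPL1, a relative of the TATA-binding protein (0.97), SAMD8, a sphingolipid enzyme of the endoplasmic reticulum (0.97), BMP15 (0.96) and PAIP1, a translation factor that binds poly(A)-binding protein (0.96). PAIP1 averaged 395.7 RPKM at the 8-cell stage, 180.1 RPKM at the 16-cell stage, 49.9 RPKM in morulae and 0.823 RPKM in blastocysts. TBPL1 averaged 151.8 RPKM at the 8-cell stage, 79.0 RPKM at the 16-cell stage, 29.6 RPKM in morulae and 0.592 RPKM in blastocysts. Both means came down at each of these steps, as that of CIART did. CIART had an r of 0.90 with GDF9 and of 0.71 with CLOCK. Among the genes least like it were FUCA1, a lysosomal fucosidase (r = -0.98), and NDUFA13, a subunit of respiratory complex I (-0.97). FUCA1 averaged 6.63 RPKM (4.92 to 7.96) in blastocysts, against 0.389 RPKM (0.323 to 0.455) at the 8-cell stage. These likenesses are over libraries that share the same stages, which any gene with a strong stage course follows.

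The clock genes around CIART were tested in a model of all 7 stages with limma, on log2(RPKM + 1), and a gene was called at a Benjamini-Hochberg adjusted p below 0.05 and a log2 fold change of at least 1 in size. Because RPKM is divided by the gene span, the long genes of the clock core fell under the filter of 1 RPKM in 3 libraries: none of the 6 activators and none of the 10 repressors found could be tested on that scale. On RPM, reads scaled to the implied total of the library with the gene span left out, with the filter and pseudocount at the same values, 5 activators and 7 repressors were tested among 10384 genes. The core loop is therefore described on RPM.

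At the 16-cell stage 5 of these 12 core genes were called lower than at the 8-cell stage and none higher, while 30.7% of all genes tested on RPM were lower and 15.4% higher. CLOCK, the activator that CIART represses in mouse, measured 0.198, 0.228 and 0.290 RPKM at the 16-cell stage, against 0.987, 1.15 and 1.28 RPKM at the 8-cell stage, without overlap. Of the 4253 genes tested on RPKM, which do not include CLOCK, 36.1% lay wholly lower at that step. The share among genes under the filter was not computed. The log2 fold change of CLOCK on RPM was -2.27 (SE 0.58, limma adjusted p = 0.00278). The others called lower were RORA, an activator of the second loop (-1.92, adjusted p = 0.0156), TIMELESS, a replication-fork protein (-1.40, 0.00111), the repressor CRY1 (-1.38, 0.00813) and the repressor PER3 (-1.34, 0.00241). ARNTL, the gene of BMAL1, had a log2 fold change of -0.40 (adjusted p = 0.238) and was not called.

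CLOCK was called lower again in blastocysts against morulae (log2 fold change -2.91 on RPM, SE 0.58, limma adjusted p = 0.000399), at the step where CIART became nearly undetectable. It measured 0.0130, 0.0131 and 0.0121 RPKM in blastocysts, against 0.0482, 0.0368 and 0.354 RPKM in morulae. The blastocyst values lay close to the offset of 0.01 that each includes, with 46 implied reads in all. Without 16-cell C and morula C the log2 fold change of CLOCK was -1.87 (limma adjusted p = 0.00100). RORA was also called lower (-2.21, adjusted p = 0.00868), but without those libraries it was under the fold threshold (-0.98, 0.0310). ARNTL was lower (-1.09, 0.00420; -1.50 without those libraries), whereas NPAS2, the paralog of CLOCK, was called higher (1.70, 1.09e-05; 1.58 without them). That step had 28.1% of genes lower and 7.74% higher on RPM. None of the 7 repressors tested was called there. In morulae against the 16-cell stage, where 9.44% of genes were higher and 7.59% lower on RPM, the repressor NR1D2 (REV-ERB beta) was called higher (2.74, adjusted p = 0.00243), and RORA, which binds the same DNA element, lower (-2.30, 0.0154). NR1D2 measured 1.35, 0.366 and 0.111 RPKM in the 3 morulae, against 0.0438, 0.0242 and 0.0575 RPKM at the 16-cell stage.

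The light- and hormone-responsive repressors PER1 and PER2 were called higher at the 2-cell stage than in oocytes, by 1.51 (adjusted p = 0.00497) and 1.02 (0.00566) log2 units on RPM with limma, where 14.0% of genes were higher and 0.482% lower. PER1 averaged 0.443 ± 0.062 RPKM at the 2-cell stage and 0.0977 ± 0.0222 RPKM in oocytes (SD, n = 3 each). CIART's own means at these stages overlapped between libraries. No core gene was called between the 2-cell and 4-cell stages (0% of genes on RPM) or between the 4-cell and 8-cell stages (0.385%). CRY2, NR1D1 and BHLHE41 were too low to be tested, at means of at most 0.0379, 0.0979 and 0.236 RPKM in any stage.

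**Figure D3:**
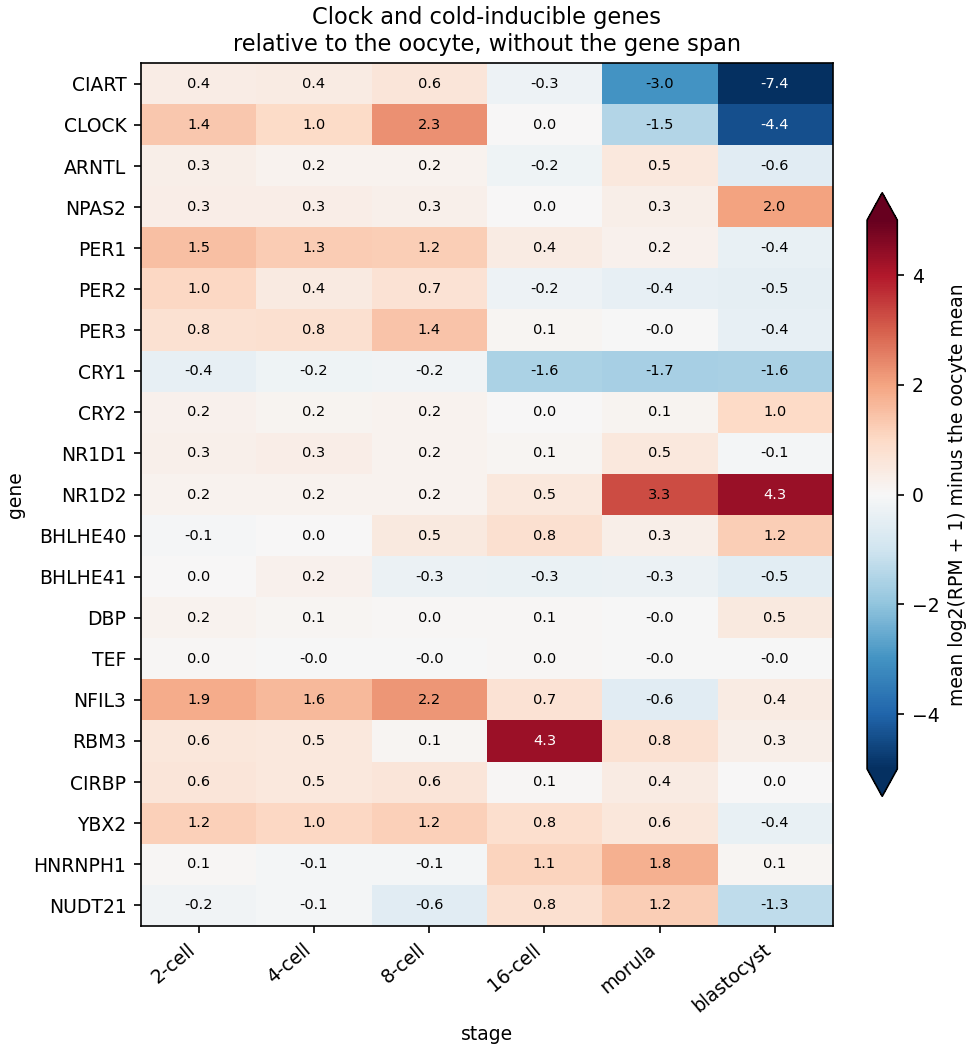
Mean log2(RPM + 1) of clock and cold-inducible genes at each stage minus the mean in oocytes (rows are genes, columns stages, n = 3 libraries per mean; red is above and blue below the oocyte). CIART ends 7.4 log2 units below the oocyte in blastocysts and CLOCK 4.4 below, NR1D2 ends 4.3 above, and RBM3 stands out at the 16-cell stage at 4.3 above.

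Over all clock lists together, the core loop included, 18 of 52 clock genes found (of 63 listed) were tested on RPKM. All 18 passed the moderated F test over the stages, as did 93.8% of all genes tested. At the 16-cell stage against the 8-cell stage 3 of the 18 were called higher and 4 lower, near the 19.4% and 15.9% of all genes tested. Their median log2 fold change was -0.62, against -0.14 over all genes tested. Without 16-cell C and morula C, 10 of the 18 were called in all, beside 1823 of all 4253 genes tested. On RPM 6 of 45 were higher and 19 lower, beside 15.4% and 30.7%, with a median of -0.83 against -0.52 over all genes. The core genes called lower on RPM are counted again in these numbers. The split between higher and lower calls depended on the scale there: 55.1% of the genes called were higher on RPKM and 33.5% on RPM.

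Called higher at the 16-cell stage were chromatin and RNA cofactors of the clock. CBX3, a heterochromatin protein, averaged 17.2 ± 11.7 RPKM at the 16-cell stage and 0.774 ± 0.158 RPKM at the 8-cell stage (SD, n = 3 each; log2 fold change 3.13, SE 0.40, limma adjusted p = 4.56e-06). SFPQ, an RNA-binding cofactor of the PER complex, averaged 19.0 ± 7.21 RPKM at the 16-cell stage and 3.84 ± 0.187 RPKM at the 8-cell stage (1.97, adjusted p = 1.90e-05). The helicase DDX5 averaged 87.8 ± 30.8 RPKM at the 16-cell stage and 39.0 ± 2.14 RPKM at the 8-cell stage. Called lower were corepressor genes and a ligase: NCOR1 (-1.56, adjusted p = 3.30e-05), SIN3A (-1.28, 0.000113) and FBXW7, a ubiquitin ligase subunit (-1.50, 8.76e-06). The list of 8 tested cofactors thus held 3 higher and 2 lower, and the list of 9 tested kinases and ligases 0 higher and 1 lower.

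NFIL3, the repressor of the output genes driven by DBP and its relatives, was the only clock output factor tested on RPKM. It averaged 6.62 ± 0.885 RPKM at the 2-cell stage and 1.31 ± 0.266 RPKM in oocytes (SD, n = 3 each; log2 fold change 1.72, limma adjusted p = 0.0137), the single clock gene called there, where 4.37% of all genes tested were called higher and 0.400% lower. Without oocyte C or 2-cell C its adjusted p was 0.0629 and 0.0587, and with a pseudocount of 0.1 it was 0.0664. It was called lower at the 16-cell stage than at the 8-cell stage (-1.41, adjusted p = 0.00912), which did not hold without 16-cell B (0.0503) or with a pseudocount of 0.1 (0.0537). In morulae, where 11.4% of genes were called higher and 4.66% lower, the kinase CSNK1A1 was called higher than at the 16-cell stage (1.01, adjusted p = 0.000323), just past the fold threshold and below it without 16-cell A (0.96) or C (0.94) or morula A (0.96) or B (0.89), or after quantile normalization (0.82). In blastocysts against morulae (3.93% of genes higher and 25.3% lower) CSNK2B, a casein kinase subunit, was lower (-2.52, adjusted p = 0.000335), as were CBX3 (-2.05, 0.000457) and the deacetylase SIRT1 (-1.21, 4.06e-05; -0.99, under the fold threshold, without blastocyst B and -0.85 after quantile normalization).

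CIRBP, the closest relative of RBM3 in the cold-inducible family, did not share its peak. It averaged 0.178 ± 0.075 RPKM at the 16-cell stage and 0.633 ± 0.127 RPKM at the 8-cell stage (SD, n = 3 each), and was too low to be tested on either scale. In the 16-cell libraries A, B and C it measured 0.0913, 0.219 and 0.223 RPKM, from 26 implied reads in all. The 8-cell libraries, at 0.738, 0.668 and 0.493 RPKM from 118 reads, all lay above. Of the 4253 genes tested on RPKM, which do not include CIRBP, 36.1% lay wholly lower at the 16-cell stage. The share among genes as low as CIRBP was not computed. The highest library of CIRBP was morula C, at 0.945 RPKM. Of the other cold-shock proteins, 2 of 8 found were tested on RPKM and neither was called at the 16-cell stage. On RPM 2 of 6 were higher, YBX3 (2.99, limma adjusted p = 0.000301) and LIN28B (1.92, 0.000129), and CARHSP1 was lower (-1.12, 0.00420). Over all genes tested, 15.4% were called higher and 30.7% lower on RPM at that step, and 19.4% and 15.9% on RPKM.

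LIN28A, an RNA-binding protein with a cold-shock domain, was called higher at the 2-cell stage than in oocytes (log2 fold change 1.20, limma adjusted p = 0.00188; 0.98 on RPM and 0.94 after quantile normalization, both under the fold threshold). YBX2, the germ-cell cold-shock protein, was called higher at the 2-cell stage on RPM (1.19, limma adjusted p = 0.00388). At that step 4.37% of all genes tested were called higher on RPKM and 14.0% on RPM.

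Among 11 tested genes that regulate RBM3 or CIRBP or are targets of their proteins, 4 were called higher and 1 lower at the 16-cell stage against the 8-cell stage on RPKM, where 19.4% of all genes tested were called higher and 15.9% lower. SRSF5, a splicing factor, averaged 23.7 ± 8.84 RPKM at the 16-cell stage and 3.52 ± 0.691 RPKM at the 8-cell stage (SD, n = 3 each; log2 fold change 2.39, limma adjusted p = 3.79e-06). HNRNPF, a splicing regulator, averaged 112 ± 50.2 RPKM at the 16-cell stage and 25.2 ± 8.19 RPKM at the 8-cell stage (2.04, adjusted p = 0.00428). PABPN1, the nuclear poly(A)-binding protein, averaged 14.8 ± 10.8 RPKM at the 16-cell stage and 2.48 ± 0.638 RPKM at the 8-cell stage. NUDT21, a subunit of the cleavage factor that selects polyadenylation sites, averaged 14.9 ± 2.30 RPKM at the 16-cell stage and 5.78 ± 0.691 RPKM at the 8-cell stage. SRPK1, a kinase of splicing factors, was lower (-1.32, adjusted p = 0.00443).

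HNRNPH1, which in human cells controls the splicing of a poison exon of RBM3, was not called at the 16-cell stage against the 8-cell stage on RPKM, where its log2 fold change was under the threshold (0.48, limma adjusted p = 0.00423). On RPM it was called higher (1.22, SE 0.34, adjusted p = 0.00475). It averaged 0.711 ± 0.135 RPKM at the 16-cell stage and 0.223 ± 0.00782 RPKM at the 8-cell stage (SD, n = 3 each). Unlike RBM3, its mean was higher still in morulae, at 1.21 ± 0.151 RPKM. The mean of NUDT21 was also higher in morulae, at 20.9 ± 6.70 RPKM, but its libraries overlapped. They measured 13.6, 22.4 and 26.7 RPKM in morulae A, B and C, against 17.6, 13.8 and 13.4 RPKM at the 16-cell stage. PABPN1 was called lower in morulae (-1.11, limma adjusted p = 0.0334). The PABPN1 call was lost on RPM, without the filter, and without 16-cell A or B or morula A or B, with adjusted p up to 0.212.

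Of the 30 other RBM-numbered genes, all found, 13 were tested on RPKM and 11 of them passed the F test, beside 93.8% of all genes tested. At the 16-cell stage 2 of the 13 were called higher and 1 lower than at the 8-cell stage, no more than the 19.4% higher and 15.9% lower of all genes tested. RBM39, a splicing coactivator, averaged 3.86 ± 1.50 RPKM at the 16-cell stage and 0.699 ± 0.106 RPKM at the 8-cell stage (SD, n = 3 each; log2 fold change 1.47, limma adjusted p = 2.02e-05). RBM8A, a core protein of the exon junction complex, averaged 3.01 ± 1.45 RPKM at the 16-cell stage and 0.877 ± 0.0677 RPKM at the 8-cell stage (1.04, adjusted p = 0.00880; 0.0639 without 16-cell A). RBM44, a germ-cell protein, averaged 0.414 ± 0.218 RPKM at the 16-cell stage and 2.25 ± 0.215 RPKM at the 8-cell stage (-1.21, adjusted p = 0.000670).

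On RPM 4 of 27 RBM-numbered genes were called higher and 5 lower at the 16-cell stage (15.4% and 30.7% of all genes), where RBM3 had a difference of 4.16 on the same scale and RBM39, next in order, 2.33. In blastocysts against morulae none of the 13 was higher and 4 were lower on RPKM (3.93% and 25.3% of all genes tested). RBM4, a splicing regulator that also binds Per1 mRNA in mouse, averaged 4.02 ± 4.63 RPKM in blastocysts and 54.8 ± 4.82 RPKM in morulae (SD, n = 3 each; log2 fold change -3.89, limma adjusted p = 1.81e-06). RBM48 averaged 4.34 ± 4.78 RPKM in blastocysts and 20.8 ± 3.10 RPKM in morulae (-2.42, adjusted p = 0.000278). RBM3 over that step had a difference of -0.47, with morulae and blastocysts overlapping.

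**Figure D4:**
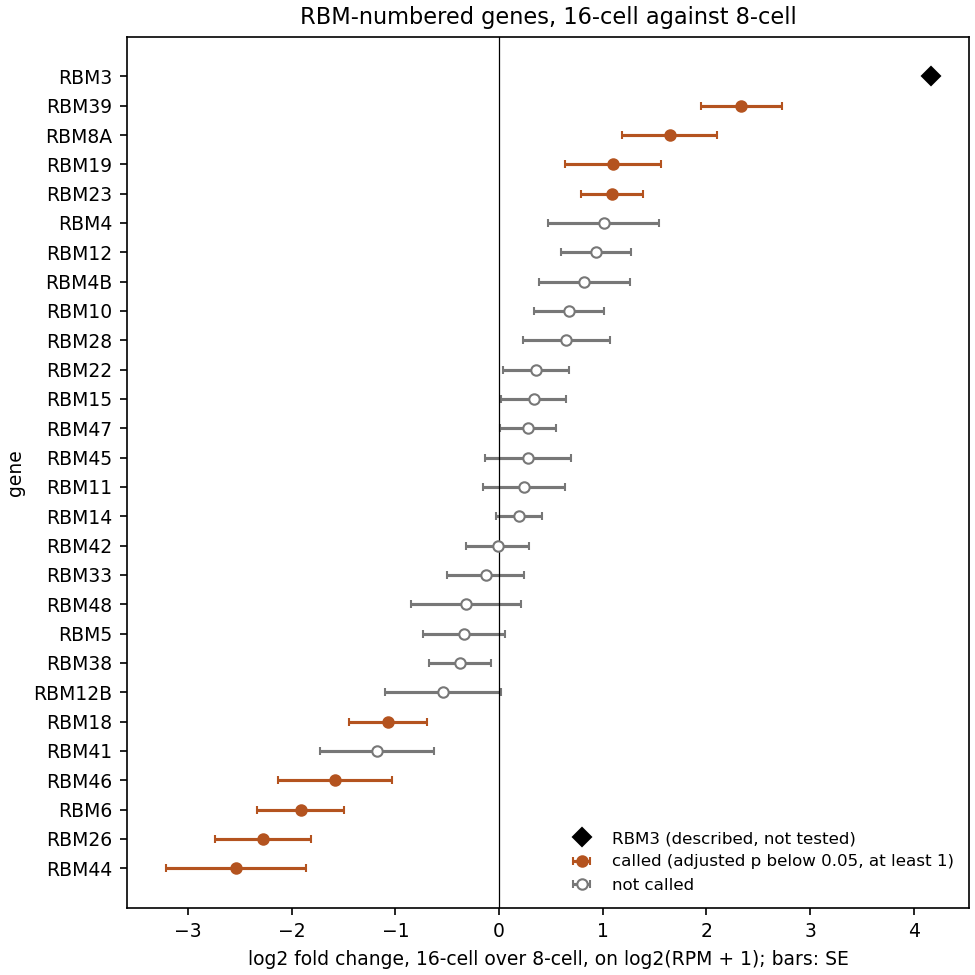
Log2 fold change at the 16-cell stage over the 8-cell stage on log2(RPM + 1) for RBM3 (diamond, described without a test) and the 27 RBM-numbered genes tested (circles with SE; filled where called). RBM3 lies at 4.16, RBM39 at 2.33 and RBM44 at -2.54.

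All cold and RNA-binding lists together held 66 genes, of which 57 were found and 26 tested on RPKM. At the 16-cell stage against the 8-cell stage 6 of the 26 were called higher and 2 lower, beside 19.4% and 15.9% of all genes tested. Their median log2 fold change was 0.10, against -0.14 over all genes tested. Without 16-cell C and morula C, 12 of the 26 were called in all, beside 1823 of all 4253 genes tested. On RPM 13 of 51 were higher and 13 lower, beside 15.4% and 30.7%. In blastocysts against morulae 0 were higher and 8 lower on RPKM, with a median of -0.80 against -0.48 over all genes. NUDT21 was called lower there (-2.20, limma adjusted p = 2.40e-05), as was HNRNPF (-2.12, 0.00431; 0.0887 after quantile normalization). Here too 25.3% of all genes tested were lower, and after quantile normalization 6 of the listed genes were called. At the 2-cell stage 3 were called higher than in oocytes: LIN28A, CLP1, a kinase of the cleavage complex (1.13, limma adjusted p = 0.00174), and G3BP1. At that step 4.37% of all genes tested on RPKM were called higher and 0.400% lower. CLP1 was under the fold threshold without oocyte C (0.99) or 2-cell B (0.98) and after quantile normalization (0.86), and G3BP1, a stress granule protein (1.04, limma adjusted p = 0.0472), lost its call in 18 of 27 alternatives. No listed gene was called between the 2-cell and 4-cell stages (0% of genes tested on RPKM) or between the 4-cell and 8-cell stages (0.682%), steps at which the libraries of RBM3 overlapped.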

How the data were processed

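The authors deposited 1 table of RPKM values with a row for each of 19040 genes and a column for each of 21 libraries. FastQC, STAR 2.5.3a and Partek are named per the submitters' processing notes, without role or order; counting rule, strand and build are given in no source used here. In each library 95.3 to 97.0% of low values were whole multiples of 1 step (within 0.05 of a step) after the offset of 0.01 was removed and the gene span multiplied in. The step gave implied reads, rounded to whole reads, with totals of 23.9 to 66.5 M, of which 24.4 to 42.0% lay in listed genes.

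Libraries were placed in stages by title. Genes that reached 1 RPKM in 3 or more libraries (4253, RBM3 and CIART among them) were fitted on log2(RPKM + 1) in 1 model of 7 stages with limma 3.58.1 (trend, robust; statmod 1.5.0, R 4.3.3) and 6 two-sided consecutive contrasts, each later minus earlier stage. Such fold changes understate the change of low genes. p-values were Benjamini-Hochberg adjusted over all genes tested and measure only the spread between these libraries. The pipeline was tested on simulated data. Python 3.11.15 and matplotlib 3.10.9 were used otherwise. The members, the gene lists and the tests were chosen with earlier results of these data known. Named beside RBM3 and CIART are 5 most and 3 least like genes, tracked clock and cold-shock genes, and up to 2 higher and 2 lower called genes per list and comparison; further called genes (DDX5 and those named on RPM) were chosen after their values were seen. YBX1, RBMX and some other listed genes were not analysed here, and some genes that the rule selects are not reported here. Alternatives were a pseudocount of 0.1, no filter, RPM, quantile normalization, a replicate block, and libraries left out.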

Additional observations from a re-analysis of the deposited data

How the results depend on the processing

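For RBM3 and CIART every log2 difference of at least 0.5 in size between consecutive stages kept its direction under all alternatives run. Among smaller differences, RBM3 in blastocysts against morulae was 0.44 after quantile normalization, against -0.47 as reported and 0.06 at the highest with a library left out, and its 4-cell against 2-cell difference lay on either side of 0. Values that moved by more than the spread between libraries were RBM3 at the 2-cell stage against oocytes after quantile normalization (0.25), CIART at the 16-cell stage after quantile normalization (-1.65), and CIART in blastocysts against morulae with a pseudocount of 0.1 (-5.37) and, chosen after seeing the data, with scaling by the reads in listed genes (-5.30). A smaller pseudocount gives more weight to values near 0, and CIART had 0 to 47 reads in blastocysts. With single libraries left out the RBM3 difference at the 16-cell stage ran from 3.22 to 4.99 and that of CIART in morulae from -3.46 to -1.60.

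Counts of calls moved more. The full fit called 203 genes in 2-cell embryos, 0 in 4-cell, 29 in 8-cell and 1502 in 16-cell embryos, 683 in morulae and 1244 in blastocysts, each against the stage before. With a pseudocount of 0.1 the counts were 350, 1, 2329, 1096 and 2136 (2-cell, 4-cell, 16-cell, morula, blastocyst), with 0, 12, 3 and 8 clock genes and 5, 15, 3 and 19 cold and RNA-binding genes at the 2-cell, 16-cell, morula and blastocyst steps. On RPM, with 10384 genes tested, they were 1501, 4789, 1768 and 3727 at those 4 steps. Clock genes among them were 8, 25, 5 and 15 of 45 tested, and cold and RNA-binding genes 8, 26, 5 and 24 of 51 tested. On that scale 45 of the 45 and 46 of the 51 passed the F test at any stage, beside 92.5% of all genes tested. On RPM without 16-cell C and morula C, chosen after seeing the data, 28 clock and 29 cold and RNA-binding genes were called at the 16-cell stage and 14 and 23 in blastocysts. Without the filter 43 of the 52 clock and 47 of the 57 cold and RNA-binding genes found passed the F test. The share over all genes is not given for that setting, so nothing is read from these counts. No cold or RNA-binding gene was called in morulae (0) without the filter. Quantile normalization called 80 genes at the 8-cell stage, 2 clock genes in morulae and no cold or RNA-binding gene (0) at the 2-cell stage. Of the genes called it put 57.4% higher at the 2-cell stage (91.6% as reported), 57.0% in morulae (71.0%) and 45.0% in blastocysts (13.4%); RPM put 55.4% and leaving out 16-cell C and morula C 58.6% higher in morulae. The median gene moved by 0.19 log2 units in 2-cell embryos, -0.14 in 16-cell embryos and -0.48 in blastocysts on RPKM, and by 0.46, -0.52 and -0.50 on RPM. Without 16-cell C and morula C, 1 gene was called at the 4-cell stage and 72 at the 8-cell stage. In morulae 991 of all genes tested were then called, with 5 clock and 2 cold and RNA-binding genes. The cause of these moves was not tested.

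Leaving out single libraries gave 110 (without oocyte C) to 242 genes at the 2-cell, 12 (8-cell B) to 60 (morula C) at the 8-cell and 385 (morula A) to 1074 (morula C) at the morula step. Clock genes called ran from 0 to 2 at the 2-cell, 0 to 1 at the 8-cell, 0 to 4 at the morula and 2 to 5 at the blastocyst step, and cold and RNA-binding genes from 1 to 4 at the 2-cell and 0 to 2 at the morula step. Of 26 list results named by rule on RPKM, 15 kept their call under all 27 alternatives. Libraries were not left out singly on RPM. Library letters did not pair the samples: of 63 pairs of libraries with the same letter 18 had a correlation of deviations above 0.1 (-0.41 to 0.32), and 9 of 21 libraries were closest to their own letter. With the letter as a replicate block, clock genes called in morulae went to 2, against 1 without it, and no other listed count moved by over 1.5 times.

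CIART rested on 6, 47 and 0 reads in blastocysts A, B and C; the counting intervals of A and C overlapped, and that of B lay above both. The step of the values leaves implied reads of RBM3 up to 0.48 from a whole number. Reads shared with processed RBM3 copies, the strand of the reads and the number of embryos behind a library could not be checked from the table.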

Other observations

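MRPS21, a mitochondrial ribosomal protein gene next to CIART, averaged 0.0827 ± 0.0242 RPKM at the 8-cell stage, 0.590 ± 0.152 RPKM in morulae and 0.428 ± 0.215 RPKM in blastocysts (SD, n = 3 each). APH1A, on its other side, averaged 0.152 ± 0.0460 RPKM at the 8-cell stage, 0.0229 ± 0.0169 RPKM at the 16-cell stage and 0.0165 ± 0.0113 RPKM in blastocysts, and PRPF3, further out, 2.66 ± 0.815, 0.932 ± 0.482 and 0.386 ± 0.247 RPKM (SD, n = 3 each). The APH1A means rested on 5 implied reads in all at the 16-cell stage and 2 in blastocysts. Around RBM3, WDR13 averaged 0.983 ± 1.04 RPKM at the 16-cell stage and 1.40 ± 0.666 RPKM at the 8-cell stage, and TBC1D25 0.0974 ± 0.0311 RPKM at the 16-cell stage and 0.0889 ± 0.0103 RPKM at the 8-cell stage (SD, n = 3 each). A gene listed without a symbol (ENSCHIG00000021522), 28191 bases from RBM3, measured 31.2, 6.21 and 6.94 RPKM in 16-cell A, B and C, against 0.331, 0.454 and 0.650 RPKM at the 8-cell stage, and so was high at the stage where RBM3 was.

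SIRT1, a deacetylase of clock proteins, averaged 0.952 ± 0.357 RPKM at the 16-cell stage and 0.0655 ± 0.0244 RPKM at the 8-cell stage (SD, n = 3 each), with a log2 fold change on RPM of 3.34 (limma adjusted p = 7.11e-05) and on RPKM of 0.86, which is under the threshold for a call. HDAC3, a deacetylase that works with NCOR1, averaged 0.137 ± 0.147 RPKM at the 16-cell stage and 1.22 ± 0.357 RPKM at the 8-cell stage (-2.82 on RPM, limma adjusted p = 1.48e-05; -0.96 on RPKM, not called), and BTRC, the ligase subunit that marks PER proteins for degradation, 0.0493 ± 0.0271 RPKM at the 16-cell stage and 0.324 ± 0.0661 RPKM at the 8-cell stage (-2.97 on RPM, limma adjusted p = 4.41e-06; not tested on RPKM). These genes were singled out after their values were seen.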
